A study of Mus musculus with 6 samples.

Results

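Splenic CD8 T cells with RNA of Ly6c2, Il2rb and Cxcr3, named central-memory-like by those markers, are described here across all genes. The cells were selected on their own measured values. A cell was taken with at least 2 summed raw UMIs (unique molecular identifiers, each 1 counted RNA molecule) of the 3 markers, under 3 of Gzma, Gzmk and S100a4 together and under 2 of Mpo, Elane and Prtn3 together. It also had 500 or more detected genes, 1000 or more UMIs and no more than 20% of UMIs from mitochondrial genes. Of 6406 spleen cells that met the last 3 conditions, 3479 met the whole rule, 648 of 1478 in the Pdcd1fl/fl-labelled library and 2831 of 4928 in the Pdcd1 cKO-labelled library. They are called marker-positive cells below, and were compared with the 451 and 1033 cells of the same libraries that had 0 UMIs of all 3 markers, the 0-UMI cells. The limits on Gzma, Gzmk and S100a4 and on Mpo, Elane and Prtn3 were not put on the 0-UMI cells. Of these, 449 and 997 met both limits.

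The study asked how loss of Pdcd1, which encodes the inhibitory receptor PD-1, in CD8 T cells alters those cells in thymus, spleen and tumor, and made 1 single-cell library per genotype and tissue by PIPseq, which captures cells in droplets with barcoded beads. Both spleen groups were adult C57BL/6 mice older than 8 weeks with floxed Pdcd1 alleles, sampled at baseline, and 1 mouse gave each splenic library. The Pdcd1 cKO mouse also carried the E8I Cd8a-cre transgene, whose enhancer directs Cre to cells of the CD8 lineage, so other cells keep the gene. CD8a-positive cells were enriched with a magnetic isolation kit before capture.

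Ly6c2 encodes a surface protein of the Ly6C pair that marks antigen-experienced and memory CD8 T cells, Il2rb the beta chain of the receptors for interleukin-2 and interleukin-15, and Cxcr3 a chemokine receptor that draws T cells to inflamed tissue. Memory CD8 T cells that keep CCR7 recirculate through lymphoid organs and are called central memory cells. Similar cells also form without foreign antigen, driven by interleukin-15 and Eomes, and are known as virtual memory cells.

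Pdcd1 RNA went against the labels. Over all filtered spleen cells, the Pdcd1fl/fl-labelled library held 1 Pdcd1 UMI and the Pdcd1 cKO-labelled library held 104. Among marker-positive cells the counts were 1 and 46 UMIs, or 0.935 (95% interval 0.0237 to 5.21) and 8.18 (95% interval 5.99 to 10.9) CPM (counts of a gene scaled to equal totals per group). The RNA left by the floxed allele was not separated from intact RNA, so the counts do not show which mouse lacked PD-1. Genotypes are therefore given only as library labels, and every direction between the libraries rests on them. The paper also measured PD-1, NKG7, granzyme B and interferon-gamma protein by flow cytometry in mice of both genotypes. Those measures bear on the labels too, and were not used here. Depth differed too. The library labelled Pdcd1fl/fl held 5935926 UMIs in 6929 barcodes, of which 5267 had under 1000 UMIs, whereas the other library held 8964626 UMIs in 4963 barcodes, of which 0 did. Marker-positive cells had a median of 1396.5 UMIs in the first and 1828 in the second, and 0-UMI cells 1233 and 1368. The libraries shared 2 barcodes, none of them in a filtered cell. With 1 library per genotype no difference has a replicate check, and all intervals cover counting error only.

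The marker-positive share of filtered cells was 43.8% (Clopper-Pearson 95% interval 41.3 to 46.4) in the Pdcd1fl/fl-labelled library and 57.4% (56.1 to 58.8) in the Pdcd1 cKO-labelled library. Because a fixed UMI minimum takes more cells from a deeper library, each cell was also thinned at random to 1000 UMIs before the rule was applied, which gave 31.9% and 39.7%. The selection was a range along a sum and had many cells at its edge. With 2 marker UMIs, just inside, there were 253 and 759 cells, and with 1, just outside, 377 and 1013, of which 377 and 985 met the other limits. At the effector limit, 4 and 88 marker-positive cells had 2 UMIs of Gzma, Gzmk and S100a4. Under the same marker and granulocyte-gene limits, 0 cells in the Pdcd1fl/fl-labelled library and 20 in the other had 3 such UMIs. Ccl5 was at 10548 CPM in the 88 cells just inside and 13627 in the 20 just outside.

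Ly6c2 carried most of the selection. It gave 76.8% of the marker UMIs of the marker-positive cells in the Pdcd1fl/fl-labelled library and 76.0% in the Pdcd1 cKO-labelled library, against 19.4% and 20.8% for Il2rb and 3.72% and 3.19% for Cxcr3. Ly6c2 lies on chromosome 15 at 74980003 to 74988467, minus strand, Il2rb on chromosome 15 at 78363456 to 78395566, minus strand, and Cxcr3 on chromosome X at 100775141 to 100777875, minus strand (GRCm39). Ly6c2 UMIs without the other markers selected 309 and 1072 cells, and Il2rb UMIs without the others 35 and 139. Only 17 and 171 cells had all 3 markers. As a description of the selection, Ly6c2 was at 1641 and 1727 CPM, Il2rb at 415 and 473 CPM and Cxcr3 at 79.5 and 72.5 CPM. The effector genes held under the limit were low, Gzma at 4.67 and 25.1 CPM, Gzmk at 10.3 and 33.6 CPM and S100a4 at 15.0 and 35.0 CPM. The granulocyte genes Mpo, Elane and Prtn3 had 0 UMIs in marker-positive cells of the Pdcd1fl/fl-labelled library and 28, 37 and 11 in those of the other.

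The cells carried the RNA of CD8 T cells. Cd3e, a chain of the T cell receptor complex, was at 233 and 339 CPM, and Trac, the receptor's alpha constant region, at 391 and 570.0 CPM. Cd8a and Cd8b1, the CD8 co-receptor chains, were at 204 and 245 and at 587 and 886 CPM, and 63.4% and 82.7% of cells had a UMI of either. That share was 66.7% in the 12 cells of the Pdcd1 cKO-labelled library with at least 2 granulocyte-gene UMIs. Of those cells, 91.7% had a UMI of a CD3 chain or T cell receptor constant region. What those cells were was not tested, and the share was not read as expression per cell. Of markers fixed for the central-memory name, Cd44, a hyaluronan receptor raised on antigen-experienced T cells, was higher than in 0-UMI cells. Ccr7 was lower by less than 1.5-fold. Eomes was past 1.5-fold higher in the Pdcd1fl/fl-labelled library alone. These markers did not set the cells apart as a central memory type, and the cells are named here by their rule.

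Marker-positive cells had higher Ccl5, Cd44, Lgals1 and Ctla2a and lower Rab6b than 0-UMI cells in both libraries, and few other genes were past the fold. Of 3413 genes that entered, 29 were past 1.5-fold higher in both libraries (0.85%) and 13 past 1.5-fold lower (0.381%), with the 9 genes of the rule left out. A gene entered when the smaller group would hold at least 20 of its UMIs at equal level in each library. The median log2 ratio over these genes was 0.01 in the Pdcd1fl/fl-labelled library and 0.00 in the Pdcd1 cKO-labelled library. In the Pdcd1fl/fl-labelled library the interval included 0 for 9 of the 29 and 4 of the 13, among them Il18r1, Gm33104, Ifngr2, Aim2 and Arhgap31, and in the other library for 0 and 0. Not all of these genes were found again under other settings, whether or not fewer genes entered. With the rule on Ly6c2 and Cxcr3, 4318 entered, with all 29 and 13 of these genes, and 20 and 11 were found again. With each cell weighted equally, 3413 entered, with all 29 and 13, and 23 and 10 were found again. With the effector and granulocyte limits also put on the 0-UMI cells, 3403 entered, with 29 and 11, and 27 and 10 were found again. With cells thinned to 1000 UMIs, 2651 genes entered, among them 21 of the 29 and 7 of the 13, and 14 and 3 were found again. In cells with at least 1500 UMIs 1035 entered, with 5 and 0 of these genes, and 3 and 0 were found again. With a Cd8a or Cd8b1 UMI required, 1824 entered, with 14 and 3 of these genes, and 10 and 2 were found again. With Ly6c2 left out of the rule for both groups, 1324 entered, with 4 and 2 of these genes, and 0 and 2 were found again among 8 higher and 2 lower. The cause was not tested. The marker-positive cells were picked in these same cells, so the contrast is a description and was not tested.

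Among genes of memory and virtual memory T cells, 16 of 25 entered, 5 were past 1.5-fold higher in both libraries and 0 lower, with medians of 0.53 and 0.58 beside 0.01 and 0.00 for all genes. Ccl5, a chemokine that memory CD8 T cells hold ready for release, was the most abundant of those named, at 4675 CPM against 2712 in the Pdcd1fl/fl-labelled library and 8964 against 5467 in the Pdcd1 cKO-labelled library, log2 ratios of 0.79 (95% interval 0.70 to 0.87) and 0.71 (95% interval 0.68 to 0.75). In the 0-UMI cells that also met the effector and granulocyte limits, Ccl5 was at 2687 and 4939 CPM. Cd44 was at 98.2 CPM against 59.2 in the Pdcd1fl/fl-labelled library and 115 against 72.9 in the Pdcd1 cKO-labelled library, log2 ratios of 0.73 (95% interval 0.17 to 1.32) and 0.65 (95% interval 0.36 to 0.95). Ms4a4c, a membrane protein of the MS4A family, had 178 CPM against 98.7 in the Pdcd1fl/fl-labelled library and 175 against 97.8 in the Pdcd1 cKO-labelled library, log2 ratios of 0.85 and 0.84. Il18r1, a chain of the interleukin-18 receptor, was at 64.5 CPM against 42.8 in the Pdcd1fl/fl-labelled library and 69.1 against 39.0 in the Pdcd1 cKO-labelled library, log2 ratios of 0.59 (95% interval -0.08 to 1.30) and 0.83 (95% interval 0.43 to 1.24), and in the first library 3 cells held 27.5% of its UMIs. All 4 were past the fold in both libraries, and Il18r1 was at a log2 ratio of -0.0730 in the first with a Cd8a or Cd8b1 UMI required.

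The fifth gene was Ly6c1, the neighbour and close relative of Ly6c2, at 47.7 CPM against 18.1 in the Pdcd1fl/fl-labelled library and 55.6 against 24.3 in the Pdcd1 cKO-labelled library, log2 ratios of 1.40 and 1.19. Because 29.8% of the 50-base stretches of its annotated transcripts also occur in those of Ly6c2, reads of the selecting gene can be counted for it, and its level is uncertain. Nkg7, a protein of cytotoxic granules, and Klrd1, which encodes CD94, were not past 1.5-fold in both libraries. Nkg7 was at 1412 against 1111 CPM and at 1925 against 1539 CPM (log2 ratios 0.35 and 0.32). Klrd1 was at 252 against 168 CPM and at 262 against 179 CPM (log2 ratios 0.59 and 0.55), past the fold in the first library alone. Eomes, the T-box factor of memory CD8 T cells, was at 69.2 CPM against 37.9 in the Pdcd1fl/fl-labelled library and 94.2 against 82.5 in the Pdcd1 cKO-labelled library, log2 ratios of 0.87 (95% interval 0.18 to 1.61) and 0.19 (95% interval -0.09 to 0.48). Its interval in the second library included 0, and with cells limited to those with a Cd8a or Cd8b1 UMI the first ratio was -0.00888.

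Genes of naive T cells and lymph node homing that entered did not pass the fold in both libraries. Of 16, 13 entered, 0 were higher and 0 lower, with medians of -0.01 and -0.09. Ccr7, the receptor that guides T cells into lymph nodes, was at 309 CPM against 380.2 in the Pdcd1fl/fl-labelled library and 283 against 395 in the Pdcd1 cKO-labelled library, log2 ratios of -0.30 (95% interval -0.55 to -0.05) and -0.48 (95% interval -0.61 to -0.34). Lef1, a transcription factor of naive and early memory T cells, was at 271 CPM against 387 in the Pdcd1fl/fl-labelled library and 231 against 311 in the Pdcd1 cKO-labelled library, log2 ratios of -0.51 and -0.43. Dapl1, a gene high in naive and stem-like CD8 T cells, was at 323 CPM against 474 in the Pdcd1fl/fl-labelled library and 279 against 452 in the Pdcd1 cKO-labelled library, log2 ratios of -0.55 and -0.70, past 1.5-fold in the second library only. Tcf7, which encodes TCF1, and Il7r, the interleukin-7 receptor that sustains naive and memory cells, were near 0 or not past the fold. Tcf7 was at 145 against 143 CPM and at 148 against 157 CPM (log2 ratios 0.02 and -0.09). Il7r was at 170.2 against 159.6 CPM and at 194 against 155 CPM (log2 ratios 0.09 and 0.32). S1pr1, the receptor for exit from lymphoid organs, was past the fold lower in the first library alone, at 136 CPM against 225 in the Pdcd1fl/fl-labelled library and 116 against 127 in the Pdcd1 cKO-labelled library, log2 ratios of -0.73 and -0.13. The 3 genes Ccr7, Lef1 and Dapl1 were lower in both libraries. Of the listed genes that did not enter, 5 were past the fold lower and 3 higher in both libraries with intervals apart from 0. The share over all genes that did not enter is not given, so these counts were not read as a result. Higher were Klrk1 (log2 ratios 1.18 and 1.12), Samd3 (1.81 and 1.24) and Ifit3 (exact lower limit 1.56 in the first library, 0.84 in the second). Ikzf2, Car2 and Klrg1 were lower. Among the lower were 2 of this list, Igfbp4, a binding protein of insulin-like growth factors, at 20.6 CPM against 54.3 in the Pdcd1fl/fl-labelled library and 22.4 against 80.6 in the Pdcd1 cKO-labelled library, log2 ratios of -1.40 (95% interval -2.25 to -0.58) and -1.85 (95% interval -2.21 to -1.48), and Ccr9, a receptor for homing to the gut, at 13.1 CPM against 32.9 in the Pdcd1fl/fl-labelled library and 12.8 against 28.1 in the Pdcd1 cKO-labelled library, log2 ratios of -1.33 (95% interval -2.43 to -0.27) and -1.14 (95% interval -1.70 to -0.56).

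Of 26 effector and cytotoxic genes, 10 entered, 1 was past the fold higher in both libraries and 0 lower, with medians of 0.55 and 0.35. That gene was Lgals1, which encodes galectin-1, at 559 CPM against 247 in the Pdcd1fl/fl-labelled library and 589 against 339.5 in the Pdcd1 cKO-labelled library, log2 ratios of 1.18 (95% interval 0.92 to 1.45) and 0.79 (95% interval 0.66 to 0.93). S100a6, a calcium-binding protein raised in activated and memory T cells, was at 622 CPM against 309 in the Pdcd1fl/fl-labelled library and 717 against 479 in the Pdcd1 cKO-labelled library, log2 ratios of 1.01 and 0.58, and in the second library 3 of the 0-UMI cells held 26.3% of that group's UMIs. Ccl4, a chemokine of activated CD8 T cells, was at 165 CPM against 98.7 in the Pdcd1fl/fl-labelled library and 587 against 477 in the Pdcd1 cKO-labelled library, log2 ratios of 0.74 and 0.30. Gzmb, a killing protease, had 9 and 153 UMIs in marker-positive cells and did not enter in both libraries, and Klrg1, a receptor of terminal effectors, 0 and 10 UMIs. For Gzmm, a granzyme of memory and innate-like lymphocytes listed with the memory genes, the libraries differed, at 148 CPM against 105 in the Pdcd1fl/fl-labelled library and 202 against 39.6 in the Pdcd1 cKO-labelled library, log2 ratios of 0.49 (95% interval 0.06 to 0.93) and 2.35 (95% interval 1.98 to 2.75). In thinned cells a Gzmm UMI was found in 10.3% of marker-positive and 7.10% of 0-UMI cells in the first library and in 15.2% and 3.39% in the second. Unthinned, the marker-positive shares were 16.4% and 24.5%. In the 12 cells of the second library with at least 2 granulocyte-gene UMIs the share was 16.7% thinned and 33.3% unthinned. A Gzmm UMI was not read as expression either.

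Receptors and regulators gave few further genes. Of 15 killer lectin-like receptor genes, 14 were in the files and 1 entered, Klra7, an inhibitory Ly49 receptor for class I molecules, which was higher at 83.2 CPM against 51.0 in the Pdcd1fl/fl-labelled library and 97.9 against 34.5 in the Pdcd1 cKO-labelled library, log2 ratios of 0.71 and 1.504. Of 21 transcription factor genes for T cell fate, 15 entered and 1 was past the fold, Gata3, which directs T cell differentiation, at 41.1 CPM against 21.4 in the Pdcd1fl/fl-labelled library and 60.8 against 32.0 in the Pdcd1 cKO-labelled library, log2 ratios of 0.94 (95% interval 0.02 to 1.96) and 0.93 (95% interval 0.50 to 1.39), though the first ratio was -0.00406 with a Cd8a or Cd8b1 UMI required. Stat5b, which signals for the interleukin-2 and interleukin-15 receptors, was at 36.5 CPM against 98.7 in the Pdcd1fl/fl-labelled library and 46.9 against 67.1 in the Pdcd1 cKO-labelled library, log2 ratios of -1.44 and -0.52, lower in both and past the fold in the first. Of 17 cytokine receptor genes, 9 entered and 1 was past the fold lower, Ifngr2, the signalling chain of the interferon-gamma receptor, at 38.3 CPM against 57.6 in the Pdcd1fl/fl-labelled library and 24.5 against 46.7 in the Pdcd1 cKO-labelled library, log2 ratios of -0.59 (95% interval -1.27 to 0.11) and -0.93 (95% interval -1.35 to -0.50), so that the interval in the first library included 0. The 8 of 17 genes of chemokine receptors, integrins and adhesion that entered had medians of 0.31 and 0.16 and none past the fold in both. Cxcr4, a homing receptor for bone marrow, was at 175 CPM against 132 in the Pdcd1fl/fl-labelled library and 174 against 111 in the Pdcd1 cKO-labelled library, log2 ratios of 0.41 and 0.65.

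Of 12 inhibitory receptor and exhaustion genes, 3 entered and 0 were past the fold in both libraries, with medians of -0.46 and -0.32. Ctla4 was at 195 CPM against 268 in the Pdcd1fl/fl-labelled library and 234 against 292 in the Pdcd1 cKO-labelled library, log2 ratios of -0.46 and -0.32. Tox, a factor of exhausted T cells, was at 53.3 CPM against 49.4 in the Pdcd1fl/fl-labelled library and 77.3 against 118 in the Pdcd1 cKO-labelled library, log2 ratios of 0.11 and -0.61, and Nr4a2, an orphan receptor induced by antigen receptor signals, at 33.7 CPM against 56.0 in the Pdcd1fl/fl-labelled library and 97.6 against 114 in the Pdcd1 cKO-labelled library, log2 ratios of -0.73 and -0.23. None of the 8 interferon-stimulated, 15 immediate early, 4 cell cycle or 15 class I genes that entered, of 32, 16, 16 and 15, was past the fold in both libraries. Their medians were -0.19 and -0.08, 0.07 and 0.19, 0.05 and -0.15, and 0.07 and -0.06. The 18 T cell identity genes all entered with medians of 0.05 and 0.01.

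Ctla2a, an inhibitor of cysteine proteases made by activated T cells, was at 717 CPM against 408 in the Pdcd1fl/fl-labelled library and 672 against 322 in the Pdcd1 cKO-labelled library, log2 ratios of 0.81 (95% interval 0.60 to 1.03) and 1.06 (95% interval 0.93 to 1.20). It lies near its relative Ctla2b, and 12.3% of its 50-base transcript stretches occur in that gene. Nrarp, a feedback inhibitor of Notch signalling, was at 70.1 CPM against 32.9 in the Pdcd1fl/fl-labelled library and 37.9 against 20.5 in the Pdcd1 cKO-labelled library, log2 ratios of 1.09 and 0.89. Ifngas1, a long non-coding RNA beside Ifng, was at 43.0 CPM against 19.7 in the Pdcd1fl/fl-labelled library and 43.2 against 19.2 in the Pdcd1 cKO-labelled library, log2 ratios of 1.12 and 1.17. Fam204a and Gm33104 had log2 ratios of 0.97 and 1.43, and of 0.80 and 1.00. Ctnna2 and Pcdh9, adhesion genes of neurons, were also among the highest 10, but 3 cells held 80.3% and 41.9% of Ctnna2 UMIs and 74.1% and 65.6% of Pcdh9 UMIs of the marker-positive cells.

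Among the lowest 10, Rab6b, a small GTPase of Golgi transport, was at 58.9 CPM against 166 in the Pdcd1fl/fl-labelled library and 34.8 against 113 in the Pdcd1 cKO-labelled library, log2 ratios of -1.50 (95% interval -1.97 to -1.03) and -1.69 (95% interval -1.99 to -1.39). Actn2, an alpha-actinin, was at 19.6 CPM against 67.5 in the Pdcd1fl/fl-labelled library and 32.7 against 70.3 in the Pdcd1 cKO-labelled library, log2 ratios of -1.78 and -1.10, and Ramp1, a partner of the calcitonin receptor-like receptor, at 31.8 CPM against 54.3 in the Pdcd1fl/fl-labelled library and 16.2 against 58.2 in the Pdcd1 cKO-labelled library, log2 ratios of -0.77 and -1.85. Aim2, a sensor of cytosolic DNA, was at 41.1 CPM against 64.2 in the Pdcd1fl/fl-labelled library and 27.0 against 43.5 in the Pdcd1 cKO-labelled library, log2 ratios of -0.64 and -0.69. The log2 ratios of Gabpb2, Pphln1, Ankrd13c and Arhgap31 lay between -0.92 and -0.62 in both libraries. For 1700034P13Rik, 3 of the 0-UMI cells held 65.6% and 76% of that group's UMIs. Igkc, the immunoglobulin kappa constant region, was at 55.2 CPM against 98.7 in the Pdcd1fl/fl-labelled library and 1168 against 3162 in the Pdcd1 cKO-labelled library, log2 ratios of -0.84 and -1.44. In the Pdcd1 cKO-labelled library 3 cells held 82.7% of its UMIs in 0-UMI cells and 55.2% in marker-positive cells, and a Cd8a or Cd8b1 UMI requirement turned that library's ratio to 0.92.

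**Figure D1:**
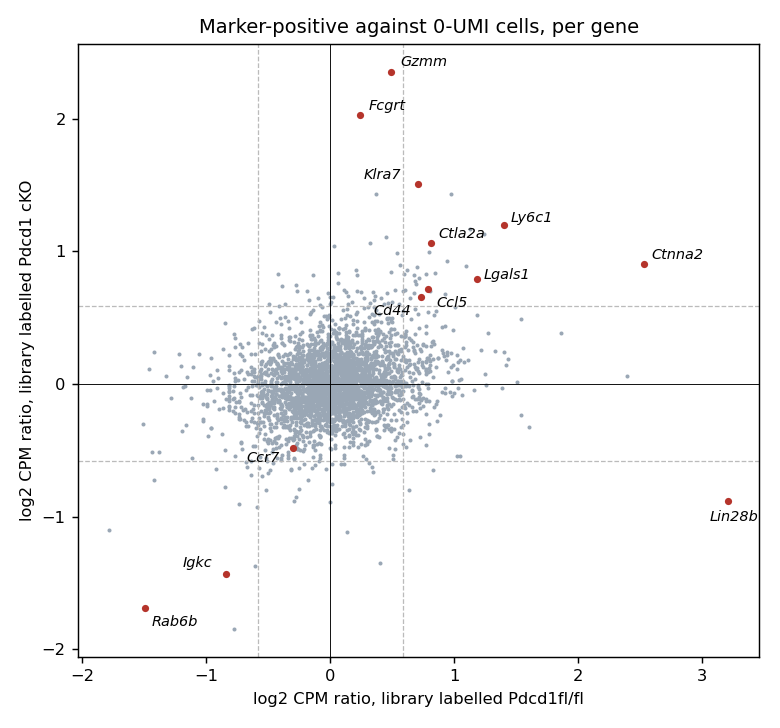
Each point is a gene that entered in both libraries, placed by its log2 CPM ratio of marker-positive to 0-UMI cells in the Pdcd1fl/fl-labelled library (x axis) and in the Pdcd1 cKO-labelled library (y axis). Dashed lines mark 1.5-fold, most genes lie inside them, Ccl5, Cd44 and Lgals1 lie outside both at the upper right, and Gzmm and Lin28b lie far from the diagonal.

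Levels were also taken along the marker sum from 0 upward, with the effector and granulocyte limits kept. Ccl5 was at 2687, 3794, 4098, 4503, 5592 and 4539 CPM in cells with 0, 1, 2, 3, 4 to 5 and 6 or more marker UMIs of the Pdcd1fl/fl-labelled library. In the Pdcd1 cKO-labelled library it was at 4939, 6361, 7249.6, 9052, 8951 and 10103 CPM. Cells with 1 marker UMI, just outside the rule, lay between the 0-UMI cells and those with 2 in both libraries. The sum of 6 or more was not the highest in the first library. Lef1 was at 389 CPM with 0 and 276 with 2 marker UMIs in the first library and at 322 and 259 in the second. Ccr7 at 6 or more marker UMIs was at 235 and 239.5 CPM, beside 382 and 406 at 0. Depth rose along the same sum, from a median of 1233 to 1759 UMIs and from 1373 to 2236, and its part in these levels was not tested.

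**Figure D2:**
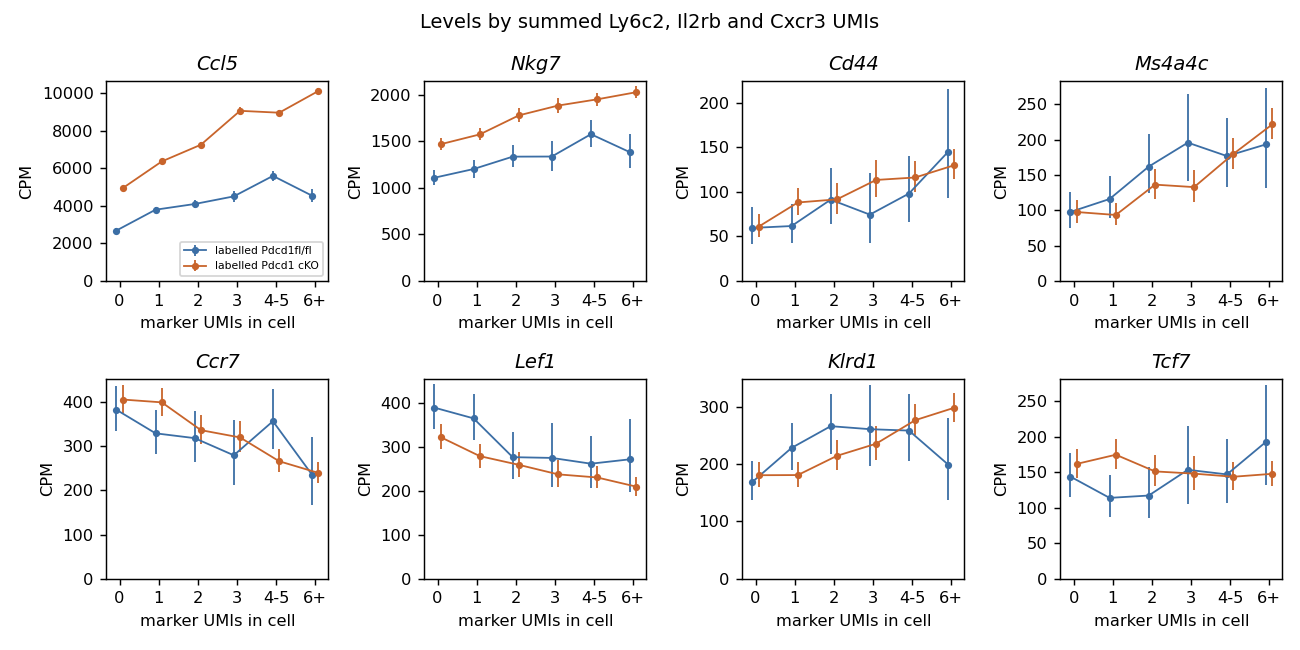
Each panel gives 1 gene's CPM (y axis, from 0) in cells grouped by summed Ly6c2, Il2rb and Cxcr3 UMIs (x axis), in blue for the Pdcd1fl/fl-labelled library and orange for the Pdcd1 cKO-labelled library, with exact Poisson 95% bars. In the orange line Nkg7 rises and Ccr7 and Lef1 decline at each step, whereas the blue line is less regular and its Ccl5 and Nkg7 are highest at 4 to 5.

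Cells selected by different markers differed in Ccl5. Marker-positive cells selected by Ly6c2 UMIs without the other markers had Ccl5 at 4737 and 8877 CPM, and those selected by Il2rb without the others 1983 (95% interval 1650.4 to 2362) and 5427 CPM (5140.0 to 5727). In the first library the Il2rb-selected cells lay below the 0-UMI cells (2712 CPM) and below those under the effector and granulocyte limits (2687 CPM). In the second library the interval included the 5467 CPM of the 0-UMI cells but lay above the 4939 CPM of those under the limits. Klrd1 of the Il2rb-selected cells was at 159 and 134 CPM, beside 274 and 274 in the Ly6c2-selected cells. Cells with Ly6c2 and Il2rb but no Cxcr3 had Ccl5 at 4880.1 and 8944 CPM, and those with Cxcr3 and another marker 5572 and 10436 CPM.

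Ccl5 UMIs per cell overlapped between the groups. In cells thinned to 1000 UMIs, with no cell left out, marker-positive cells had a median of 4 Ccl5 UMIs (quartiles 1 and 7) in the Pdcd1fl/fl-labelled library and 8 (3 and 14) in the Pdcd1 cKO-labelled library. The 0-UMI cells had medians of 1 (0 and 3) and 2 (1 and 5), but 10% of them had at least 8 and 18 UMIs, above the medians of the marker-positive cells. A Ccl5 UMI was present in 88.7% and 96.2% of thinned marker-positive cells (93.2% and 98.9% unthinned) and in 69.6% and 88.8% of 0-UMI cells. The 12 cells of the Pdcd1 cKO-labelled library with at least 2 granulocyte-gene UMIs had a median depth of 2457 UMIs. Their share was 83.3% after thinning and 100% unthinned. As 91.7% of those cells had a UMI of a CD3 chain or T cell receptor constant region, they are not shown to lack Ccl5. The presence of a Ccl5 UMI was not read as expression.

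Cells with the marker sum but at least 3 UMIs of Gzma, Gzmk and S100a4 were also left out. There were 44 in the Pdcd1 cKO-labelled library, with a median of 2164.5 UMIs, and 2 in the other, so this comparison was made in the Pdcd1 cKO-labelled library alone. Of 817 genes that entered, 76 were past 1.5-fold higher in marker-positive cells (9.3%) and 78 lower (9.55%). By the splitting genes, the left-out cells had Gzma at 783, S100a4 at 679 and Gzmk at 511 CPM. Dapl1 was at 279 CPM in marker-positive and 136 in left-out cells, a log2 ratio of 1.04 (95% interval 0.35 to 1.82). Of 9 naive and homing genes that entered, 3 were past the fold higher and 0 lower. Of 10 memory genes that entered, 3 were higher and 0 lower. The higher ones included Gzmm at 202 and 71.9 CPM, but 6 of the 10 were below 0 and the median was -0.13. Eomes, which did not enter, was lower at 94.2 and 208 CPM, a log2 ratio of -1.14 (95% interval -1.71 to -0.51). Ccl5 was at 8964 and 13225 CPM, a log2 ratio of -0.56 (95% interval -0.63 to -0.49). Of 10 effector genes that entered 0 were higher and 1 lower. Entry used the UMIs of both groups together, nearly all from marker-positive cells, so genes higher in left-out cells entered less readily. Gzmb (log2 ratio -1.69) and Ifng (-0.91) were past the fold lower and did not enter. Other effector genes that did not enter were not counted. Over all genes, at least 10 expected UMIs gave 173 higher and 260 lower, and at least 50 gave 27 and 12.

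Among the lowest 10 genes, Bhlhe40, a transcription factor induced by T cell activation, was at 175 CPM in marker-positive and 535 in left-out cells, a log2 ratio of -1.61 (95% interval -1.97 to -1.23). Rgs1, a brake on chemokine receptor signalling, was at 395 and 799 CPM (-1.01), Cd82, a tetraspanin, at 182 and 399.6 (-1.14), and Fyn, a kinase near the T cell receptor, at 251 and 527 (-1.07). Itpkb, Ikzf1, Kmt2e, Hmgb2, H2-Q4 and Ankrd11 completed the lowest 10, with log2 ratios from -1.25 to -1.02. In thinned cells Itpkb was at 0.20 and Ikzf1 at 0.30, and Ankrd11 was at 0.0533 in cells of 1000 to 2000 UMIs. At the other end stood Rgs10 (1.52), Cplane1 (1.39), Mgat4a (1.37) and Gm19299 (2.58), of which the last 2 were at -0.00592 and -0.0768 in thinned cells. The immunoglobulin genes Igkc, Ighm, Ighg2b, Iglc1 and Iglc3 were also there, with 3 cells holding 91.4% of Iglc1 UMIs of marker-positive cells. Iglc1 was at -0.79 in thinned cells, and without cells that had RNA of other lineages Igkc was at -0.55, Ighm at -0.28 and Ighg2b at -0.22. Pdcd1 had 46 UMIs and 9, 8.18 and 71.9 CPM. Tox was at 77.3 and 359.6 CPM and Itga4, an integrin chain for entry into inflamed tissue, at 57.4 and 256 CPM, and neither entered. The same 817 genes had a median of 0.07. In cells of 1000 to 2000 UMIs 18 were higher and 5 lower of 198.

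Between the libraries, listed genes past 1.5-fold in marker-positive cells were nearly all higher in the Pdcd1 cKO-labelled library, a direction that rests on labels which Pdcd1 RNA goes against. Of 5394 genes that entered, 927 were past 1.5-fold higher in that library (17.2%) and 189 lower (3.5%). Entry used the UMIs of both libraries together, most of them from that library, so genes higher there entered more readily. Ccl3 entered with 3 UMIs in the Pdcd1fl/fl-labelled library and 301 in the other. Ramp1 did not, with 34 and 91 UMIs and a log2 ratio of -0.97. The split here and in the gene lists below rests in part on this rule. The median of all genes was 0.15 and the split depended on scaling, with 601 higher and 360 lower when the median ratio was set to 0, and 641 and 324 when mitochondrial, ribosomal protein and Malat1 UMIs were left out of the totals. Of 550 genes past the fold higher that also entered there, 314 were past it in the 0-UMI cells, and of 96 lower genes 48 were. Ratios of the 0-UMI cells are given beside many of those that follow.

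Immediate early genes, induced within minutes by stimulation or tissue handling, had 10 of 15 that entered past the fold higher and 0 lower, with a median of 0.97. Zfp36, which destabilises cytokine mRNAs, was at 137 and 529 CPM, a log2 ratio of 1.95 (95% interval 1.71 to 2.19), and 1.80 in 0-UMI cells. Jun was at 248 and 726 CPM, a log2 ratio of 1.55 (1.21 in 0-UMI cells), Fos at 88.8 and 302 CPM, a log2 ratio of 1.77 (1.30), and Nr4a1, a reporter of antigen receptor signals, at 151 and 477 CPM, a log2 ratio of 1.66 (1.51). Hspa1a and Hspa1b, which encode 70-kDa stress-induced chaperones, stood among the highest 10 genes, at 22.4 and 639 CPM, a log2 ratio of 4.83 (4.62 in 0-UMI cells), and at 33.7 and 617 CPM, a log2 ratio of 4.20 (4.29). The 0-UMI cells showed differences in the same direction for each gene named.

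Some effector and memory genes were past the fold higher in the Pdcd1 cKO-labelled library. Of 16 effector genes that entered, 9 were past the fold higher and 0 lower (median 0.74), and of 22 memory genes 10 and 0 (median 0.48), while 7 and 12 did not pass it. Not past it were Ms4a4c at -0.02, Klrd1 at 0.05, Il18r1 at 0.10, Lgals1 at 0.07, S100a6 at 0.20, Nkg7 at 0.45 and Eomes at 0.45. Ccl5 was at 4675 and 8964 CPM, a log2 ratio of 0.94 (95% interval 0.90 to 0.98), beside 1.01 in 0-UMI cells. Ccl4 was at 165 and 587 CPM, a log2 ratio of 1.83 (2.27 in 0-UMI cells). Ifng, the cytokine interferon-gamma, was at 7.48 and 119 CPM, a log2 ratio of 3.99 (95% interval 3.002 to 5.21), from 8 and 668 UMIs, and at 3.97 (95% interval 2.39 to 6.27) in 0-UMI cells, from 3 and 121 UMIs. Ccl3, a chemokine of the same cluster as Ccl4, was at 2.80 and 53.5 CPM, a log2 ratio of 4.25 (95% interval 2.69 to 6.54), from 3 and 301 UMIs. In 0-UMI cells Ccl3 had 0 and 121 UMIs, a log2 ratio of 3.97 with the 0 set to 3 UMIs and an exact 95% lower limit of 3.65. Gzmb was at 8.41 and 27.2 CPM, a log2 ratio of 1.69 (95% interval 0.73 to 2.85), beside 1.19 in 0-UMI cells. Tbx21, which encodes T-bet, was at 15.0 and 39.1 CPM, a log2 ratio of 1.39 (95% interval 0.65 to 2.22), beside 1.99 (95% interval 0.53 to 3.94) from 4 and 41 UMIs in 0-UMI cells, and Bhlhe40 at 45.8 and 175 CPM, a log2 ratio of 1.93 (1.66 in 0-UMI cells). Cd7, a receptor of T and NK cells, was at 137 and 285 CPM, a log2 ratio of 1.06 (1.26). Il2rg, the chain shared by interleukin-2 family receptors, was at 272 and 611 CPM, a log2 ratio of 1.17 (1.15), and Cd69, an early activation marker, at 518 and 1076 CPM, a log2 ratio of 1.05 (0.89).

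Of 15 class I genes 6 were past the fold higher and 0 lower, with a median of 0.56 beside 0.15 for all genes. H2-D1, a classical class I heavy chain, was at 926 and 2012 CPM, a log2 ratio of 1.12 (1.00 in 0-UMI cells), and B2m, its light chain, at 3236 and 4054 CPM, a log2 ratio of 0.33 (0.44). The 18 T cell identity genes had a median of 0.54 and 5 past the fold higher, beside the memory genes' 0.48. Of 21 interferon-stimulated genes that entered 7 were past the fold higher (median 0.40), of 14 adhesion and chemokine receptor genes 7 (0.59), of 5 killer lectin-like receptor genes 3 (0.86), of 5 inhibitory genes 2 (0.54) and of 4 cell cycle genes 0 (0.27), with 0 lower in each. Relative to the median of all genes each of these values is lower by 0.15. Of 10 cytokine receptor genes 1 was higher and 1 lower (median -0.28). Naive and homing genes had a median of -0.02 with 1 of 15 past the fold higher and 0 lower, and transcription factor genes a median of 0.00 with 2 of 18 higher. Tcf7 was at 145 and 148 CPM, a log2 ratio of 0.03 (0.14 in 0-UMI cells), and Ccr7 at 309 and 283 CPM, a log2 ratio of -0.12 (0.05).

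Genes at the lower end were often borne by few cells or by 1 library. Tafa2, a secreted neuronal protein, was at 5599 CPM in the Pdcd1fl/fl-labelled library and 3.02 in the other (log2 ratio -10.86), and at 5935 and 1.92 CPM in 0-UMI cells, high in both groups of the one library and near 0 in the other. In the Pdcd1fl/fl-labelled library, 3 cells held 89.2% of Nabp1, 90.1% of Lrrc4c, 90% of Oplah, 77.3% of Klc1, 67.7% of Fhit and 62.6% of C920021L13Rik UMIs of marker-positive cells. Gpat3, Tenm2 and Lin28b, the remaining genes of the lowest 10, had log2 ratios of -1.33, -1.32 and -2.21, and in 0-UMI cells of -1.54, -1.36 and 1.88. Lin28b had 65 UMIs in 18 marker-positive cells of the Pdcd1fl/fl-labelled library, of which 3 held 44.6%.

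**Figure D3:**
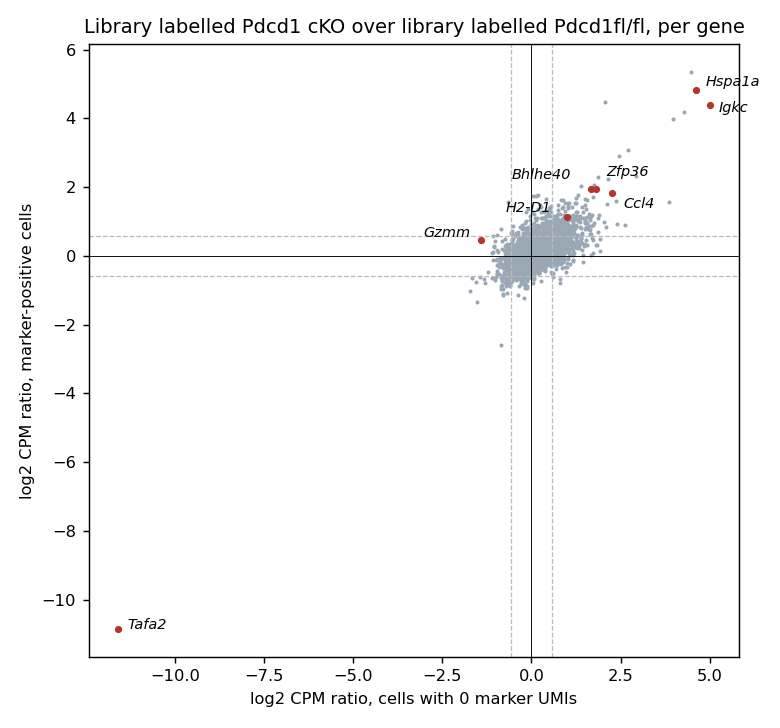
Each point is a gene that entered in both groups of cells, placed by its log2 CPM ratio of the Pdcd1 cKO-labelled library to the Pdcd1fl/fl-labelled library in 0-UMI cells (x axis) and in marker-positive cells (y axis), with dashed lines at 1.5-fold. Hspa1a, Zfp36 and Ccl4 lie high on both axes, Tafa2 low on both, and Gzmm is apart at -1.41 and 0.45.

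Immunoglobulin RNA took up most of the upper end. Igkc was at 55.2 and 1168 CPM, a log2 ratio of 4.40 (5.00 in 0-UMI cells), Ighg2b at 15.0 and 330.2 CPM, a log2 ratio of 4.46 (2.06), Jchain, which joins secreted antibodies, at 1.87 and 76.6 CPM, a log2 ratio of 5.36 (95% interval 3.49 to 8.41) from 2 UMIs in the first (4.47 in 0-UMI cells), Iglc1 at 0.935 and 707 CPM, a log2 ratio of 9.56 (95% interval 7.08 to 14.87) from 1 UMI and Iglc2 at 0.935 and 41.8 CPM, a log2 ratio of 5.48 (95% interval 2.99 to 10.79) from 1 UMI. In the second library 3 cells held 55.2% of Igkc, 80.9% of Ighg2b, 52.7% of Jchain, 91.4% of Iglc1 and 92.98% of Iglc3 UMIs of marker-positive cells. Iglc3 and Cd74, the class II invariant chain, had 0 UMIs in marker-positive cells of the Pdcd1fl/fl-labelled library and 2921 and 288 in the other. Their log2 ratios were 7.53 and 4.19 with the 0 set to 3 UMIs, with exact 95% lower limits of 7.23 and 3.88. The 14 B cell genes summed to 168 and 1745 CPM in marker-positive cells and to 225 and 4188 in 0-UMI cells, Ighm being the most abundant in marker-positive cells of the first library and Igkc in those of the second. Of these genes 4 entered between the libraries and 4 were past the fold higher, and 2 entered against 0-UMI cells, of which 1 was lower. An Igkc UMI occurred in 8.33% and 55.7% of marker-positive cells and in 12.0% and 51.1% of 0-UMI cells. T cells should lack this RNA. It was higher in the same library as most listed genes past the fold, and its part in those differences was not tested.

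For some genes the ratio of marker-positive to 0-UMI cells differed between the libraries. Of genes that entered in both, Gzmm had the largest difference toward a higher ratio in the Pdcd1 cKO-labelled library, at 1.86, and larger ones ran the other way. Next to Gzmm, Fcgrt, the neonatal Fc receptor, was at 52.4 CPM against 44.4 in the Pdcd1fl/fl-labelled library and 93.7 against 23.02 in the Pdcd1 cKO-labelled library, log2 ratios of 0.24 (95% interval -0.45 to 0.96) and 2.02 (95% interval 1.54 to 2.55). Akt2, Tmem134 and Cux1 had ratios of -1.22 and 0.23, -1.42 and 0.24, and -1.46 and 0.11. At the other end were 1700016L21Rik, all of whose 229 UMIs in marker-positive cells of the Pdcd1fl/fl-labelled library came from 2 cells, and Lin28b, Lrrc4c, Klc1 and Rbm48, whose ratios in the first library were 3.21, 2.39, 1.61 and 1.53 beside -0.89, 0.06, -0.33 and -0.24. These differences were not tested.

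Of the other lists for cells outside the CD8 lineage, 0 genes were past the fold in both libraries against 0-UMI cells, where the CD4, NK and macrophage lists had 1 gene each that entered and the others 0. Between the libraries 1 of 2 NK cell and 1 of 2 macrophage genes that entered were past the fold higher and 0 of 1 CD4 T cell genes. Of 6 CD4 T cell genes, Cd4 had 0 and 18 UMIs in marker-positive cells, and Ctla4, also expressed by CD8 T cells, was the most abundant, the list summing to 199 and 245 CPM. The 10 NK cell genes summed to 202 and 263 CPM, with Txk, shared with T cells, most abundant and Cma1 at 0. The 6 gamma-delta and innate-like genes in the files summed to 7.48 and 12.4 CPM, with Trdc most abundant and Trdv4 at 0. The 16 macrophage, monocyte and dendritic cell genes summed to 98.2 and 149 CPM, Bst2, shared with T cells, being most abundant, and C1qa, C1qc, Siglech and Xcr1 at 0. The 11 granulocyte genes summed to 1.87 and 18.7 CPM, with Elane most abundant in the second and S100a8, S100a9, Ly6g and Camp at 0. The 10 erythroid and platelet genes summed to 1.87 and 43.5 CPM, with Hbb-bs most abundant in the second and Ppbp at 0. In 0-UMI cells the CD4, NK and gamma-delta lists summed to 272 and 307, 158 and 234, and 14.8 and 19.8 CPM. There the macrophage, granulocyte and erythroid lists summed to 118 and 136, 9.87 and 26.2, and 49.4 and 62.0 CPM. Both mice had Y-linked Ddx3y RNA, at 316 and 458 CPM, and Xist had 1 and 6 UMIs.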

How the data were processed

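Both spleen libraries were 1 PIPseq sample each. The authors deposited raw UMI counts per gene and barcode, made with the PIPseq pipeline on GRCm39, and worked in Seurat 4.3.0 with SCTransform and Harmony, not used here. Cell filters were theirs. Members and gene lists were chosen with earlier results of these data known. UMIs were summed per library and group of cells and scaled to CPM with NumPy 2.4.6 and SciPy 1.17.1. Ratios carry exact conditional binomial intervals, levels Poisson intervals, at 95%. A count of 0 was set to 3 for calls. The comparison with effector-gene cells, planned in both libraries, was made in 1, as the other had 2 such cells. The ratio and interval steps were tested on simulated counts. Named genes were the 9 rule genes, Pdcd1, listed genes, the 10 highest and 10 lowest per comparison and 5 at each end of the difference between libraries. Doublets were not removed: scrublet (scanpy 1.11.5) called 10 of 1478 and 0 of 4928 cells, the latter because its threshold lay above every score, so the caller did not work there. Mean per-cell weighting, other scalings, filters, depths and marker rules were tried as alternatives. Coordinates are from GENCODE.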

Additional observations from a re-analysis of the deposited data

Results flagged for a closer look

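Zmiz1, Sfswap and Lin28b were past 1.5-fold in opposite directions in the 2 libraries when marker-positive cells were set against 0-UMI cells. The log2 ratios in the libraries labelled Pdcd1fl/fl and Pdcd1 cKO were 0.83 and -0.65 for Zmiz1, 0.63 and -0.80 for Sfswap and 3.21 and -0.89 for Lin28b, differences of -1.48, -1.43 and -4.09. The Lin28b ratio in the first library came from 65 UMIs in 18 marker-positive cells, 3 of which held 44.6%, and 4 UMIs in 0-UMI cells. In the second, 3 of the 0-UMI cells held 52.6% of that group's UMIs. Zmiz1 and Sfswap were named for this after their values were seen. Each direction comes from 1 library, and the difference was not tested.

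The same rule also took cells in tissues outside the comparisons. It was met by 148 of 1067 filtered cells of the thymus library labelled Pdcd1fl/fl and 394 of 2635 of the thymus library labelled Pdcd1 cKO, and by 120 of 456 and 39 of 561 in the tumor libraries. Cells of those libraries were deeper, with medians of 4361, 5417, 13809.5 and 9510 UMIs over all filtered cells, beside 1320.5 and 1615 in the spleen, so the same UMI minimum is a lower level there. Ccl5 in the cells that met the rule was at 1858 and 1809 CPM in thymus and 177 and 377 in tumor, below both spleen values.

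Among spleen barcodes outside the cell filter, 714 of 5451 in the library labelled Pdcd1fl/fl and 9 of 35 in the library labelled Pdcd1 cKO met the UMI conditions of the rule on markers, effector and granulocyte genes.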

How the results depend on the processing

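Shares of marker-positive cells and counts past the fold moved with several settings, while the share was higher in the Pdcd1 cKO-labelled library under each alternative run for it. Each alternative was planned for some of the results, and for those the values that moved beyond the share's interval or by over 1.5 times were as follows. Cells thinned to 1000 UMIs gave shares of 31.9% and 39.7%, 18 higher against 0-UMI cells, 608 higher and 91 lower between libraries, 19 higher and 5 lower against left-out cells. Marker sum of at least 3 gave shares of 26.7% and 42.0%, 21 lower against 0-UMI cells, 120 lower between libraries. Cells with a Cd8a or Cd8b1 UMI gave shares of 47.6% and 60.3%, 16 higher and 3 lower against 0-UMI cells. Cells of 1000 to 2000 UMIs gave 18 higher and 5 lower against left-out cells. Scaling without mitochondrial, ribosomal and Malat1 UMIs gave 324 lower between libraries, 151 higher and 44 lower against left-out cells. Median of ratios gave 601 higher and 360 lower between libraries, 50 higher against left-out cells. At least 10 expected UMIs gave 55 higher and 45 lower against 0-UMI cells, 1496 higher and 407 lower between libraries, 173 higher and 260 lower against left-out cells. At least 50 expected UMIs gave 6 higher and 1 lower against 0-UMI cells, 397 higher and 61 lower between libraries, 27 higher and 12 lower against left-out cells. Without cells with other lineage UMIs gave 15 higher and 9 lower against left-out cells. 2-fold gave 3 higher and 2 lower against 0-UMI cells, 272 higher and 21 lower between libraries, 17 higher and 12 lower against left-out cells. Rule on Ly6c2 and Cxcr3 gave shares of 33.8% and 46.2%, 56 lower against 0-UMI cells. Rule on Il2rb and Cxcr3 gave shares of 8.59% and 16.3%, 8 higher and 2 lower against 0-UMI cells. At least 1500 UMIs gave shares of 58.0% and 69.7%. For results they were not planned for, cells of 1000 to 2000 UMIs gave shares of 40.6% and 48.2%, the setting without cells with other lineage UMIs a share of 55.1% in the Pdcd1 cKO-labelled library, and at least 1500 UMIs 15 higher and 0 lower against 0-UMI cells and 523 higher between libraries. The rule on Il2rb and Cxcr3 gave 301 higher and 87 lower between libraries and 43 lower against left-out cells, and that on Ly6c2 and Cxcr3 50 lower against left-out cells. The setting on other lineage UMIs leaves out 50 (7.72%) and 1401 (49.5%) of the marker-positive cells. The cause was not tested, except that stricter or looser minimums and folds change how many genes can be counted. Of 4539 alternative values of single named genes, 4081 stayed within the counting interval, 402 moved beyond it and 56 past the fold changed sign.

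With the setting cells thinned to 1000 UMIs, log2 ratios that changed sign were 1700016L21Rik -3.50, Lrrc4c -0.66, Nabp1 -1.86, Pphln1 0.0341 against 0-UMI cells in the Pdcd1fl/fl-labelled library, and 1700016L21Rik 3.78, Lrrc4c 0.53, Nabp1 0.43 between libraries, and Gm19299 -0.0768, Iglc1 -0.79, Ikzf1 0.30, Itpkb 0.20, Mgat4a -0.00592, Xcl1 -0.14 against left-out cells. With the setting marker sum of at least 3, log2 ratios that changed sign were Fhit -0.14, Pcdh9 -0.18 against 0-UMI cells in the Pdcd1fl/fl-labelled library, and Pcdh9 1.00 between libraries. With the setting cells with a Cd8a or Cd8b1 UMI, log2 ratios that changed sign were Eomes -0.00888, Gata3 -0.00406, Il18r1 -0.0730 against 0-UMI cells in the Pdcd1fl/fl-labelled library, and 1700034P13Rik 0.13, Ighm 0.66, Igkc 0.92 against 0-UMI cells in the Pdcd1 cKO-labelled library. With the setting cells of 1000 to 2000 UMIs, log2 ratios that changed sign were 1700016L21Rik -0.41 against 0-UMI cells in the Pdcd1fl/fl-labelled library, and Igkc 0.15 against 0-UMI cells in the Pdcd1 cKO-labelled library, and 1700016L21Rik 3.89 between libraries, and Ankrd11 0.0533, Igkc -0.000633 against left-out cells. With the setting without cells with other lineage UMIs, log2 ratios that changed sign were 1700016L21Rik -0.0385, C920021L13Rik 0.15, Pcdh9 -0.47 against 0-UMI cells in the Pdcd1 cKO-labelled library, and Ankrd11 0.0124, Ighg2b -0.22, Ighm -0.28, Igkc -0.55 against left-out cells. With the setting rule on Il2rb and Cxcr3, log2 ratios that changed sign were Aim2 0.41, Arhgap31 0.54, Ctnna2 -0.62, Cux1 0.0966, Fhit -0.48, Ifngas1 -0.0168, Ifngr2 0.51, Il18r1 -0.0648, Klc1 -0.74, Klrd1 -0.0374, Lin28b -1.77, Ly6c1 -0.31, Nabp1 -2.90, Nr4a2 0.20, Pcdh9 -1.37, S100a6 -0.0103, S1pr1 0.0258 against 0-UMI cells in the Pdcd1fl/fl-labelled library, and Aim2 0.13, Arhgap31 0.48, Itga4 0.0945, Pcdh9 -0.59, Tox 0.36 against 0-UMI cells in the Pdcd1 cKO-labelled library.

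Depth limits the contrast: a cell with 0 marker UMIs is not shown to lack the markers, and 3413 of 32227 genes entered. No paired analysis was possible because each genotype has 1 spleen library.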
